A study of Salmo salar with 58 samples.

Results

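Atlantic salmon (Salmo salar) given the high dose of beauvericin were compared with control fish in the distal intestine, in 10 of the 58 libraries of the series. They are 6 libraries labelled high beauvericin, replicates 1 to 6, and 4 control libraries, replicates 1 to 4. Control replicates 5 and 6 were left out because they lacked the transcripts of absorbing enterocytes, so the controls were chosen by measured expression values. The study exposed live fish acutely for 12 h to beauvericin or to the related toxin enniatin B, each at a dose labelled only low or high, and took liver and distal intestine. Age, strain, vehicle and the amounts given are not stated in the labels. Each library is polyadenylated RNA of whole tissue, and the labels do not say that each replicate number is a separate fish. The p-values therefore measure the spread between libraries, pooled over the groups of each fit.

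Beauvericin is a cyclic hexadepsipeptide made by Fusarium moulds that grow on cereals, and it reaches farmed fish through plant ingredients of the feed. It acts as an ionophore: it carries potassium, sodium and calcium ions across membranes, and in cultured mammalian cells it lowers the mitochondrial membrane potential and causes oxidative stress and apoptosis. The distal intestine of salmon combines nutrient uptake by enterocytes with strong endocytosis of luminal protein, and its position along the gut is marked by the hox genes, whose order along the chromosome follows their order of use along the body axis.

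Values are normalized read counts, which are reads per gene divided by a factor of the library. The 6 high beauvericin libraries held about 30300000 to 36400000 reads assigned to genes, and controls 1 to 4 held about 31400000 to 39300000. No library pair within either group was alike within sampling noise, since the lowest chi-square per degree of freedom of 30 pairs was 33.8. Those pairs include controls 5 and 6, and pairs between the groups were not checked. Fold changes are differences of log2(value + 2) with their standard error, from limma over 27 intestine libraries, and a gene was called at an adjusted p below 0.05.

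The check of the tissue against its markers is a description, since these transcripts chose the controls. The mean log2 level of 18 brush border and uptake genes was 12.53 to 13.21 in high beauvericin libraries and 13.14, 12.87, 12.08 and 13.37 in controls 1 to 4, and it was 3.89 and 4.36 in the controls left out. For the 10 tested genes of lipid absorption the range was 11.71 to 12.17 in high beauvericin libraries and 11.59 to 12.36 in controls 1 to 4. The compared groups overlapped in both lists. Their median log2 changes were 0.01 and -0.10. slc6a19, a neutral amino acid transporter of the brush border, shows how far controls 1 to 4 differed among themselves, with normalized counts of 7487, 1831, 303 and 13988. In high beauvericin libraries its lowest, median and highest counts were 4103, 8119 and 13242.

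High beauvericin replicate 6 stood apart in a set of uptake genes. cubn, the endocytic receptor cubilin, had a normalized count of 10329 there, against 45.5 to 125 in the other 5 libraries of the group and 55.5, 75.2, 71.2 and 95 in controls 1 to 4. lgmn, a lysosomal protease, stood at 46353 in that library and at 4284 to 10156 in the other 5. slc15a1a, a carrier of small peptides, had 124 there and 3692 to 5833 in the other 5, and the gut hormone gene pyy had 343 against 1637 to 1880. High cubn and lgmn were not particular to that library. Their mean log2 level was 14.42 there and reached 16.39 in a library of low enniatin B. Control 4 stood apart in another way: prss1, the pancreatic enzyme trypsin, had 1709 there and 169, 21.8 and 17 in controls 1 to 3. For many named genes and lists, a value without 1 library is given beside the result or with the limits at the close. Not every shift of this kind is printed, and some lists were not refitted without 1 library.

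**Figure D1:**
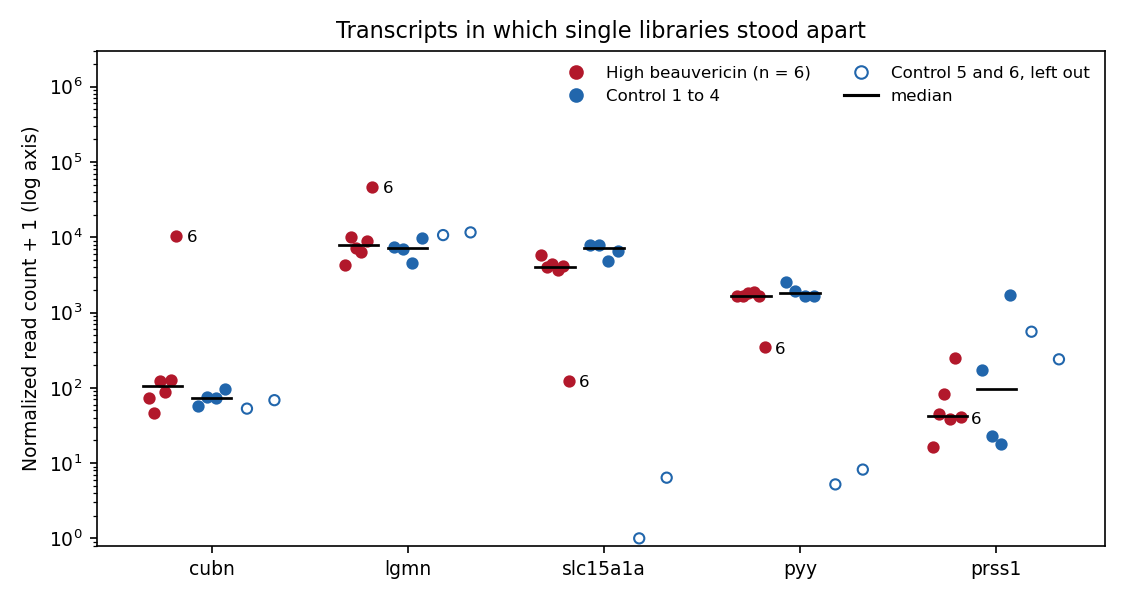
Normalized read count plus 1 on a log axis for 5 transcripts, with high beauvericin libraries in red, controls 1 to 4 in filled blue, the controls left out as open circles and group medians as black lines. The digit 6 marks high beauvericin replicate 6, which had 10329 for cubn and 124 for slc15a1a, and control 4 is the highest point for prss1 at 1709.

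Across the transcriptome the high dose of beauvericin moved few genes beyond the spread of the libraries at 12 h. Of 25568 genes tested, 1 was called higher by limma (0.00391% of those tested) and 0 were called lower (0.0%). An unadjusted p below 0.05 was reached by 1193 genes (4.67%). edgeR called 0 genes in either direction, voom 0 in either direction, and DESeq2 5 higher and 1 lower. The 95% interval of the change lay within -1 and 1 on the log2 scale for 22293 genes (87.2%), with a median distance from the change to its bound of 0.391. Libraries of the 2 groups did not overlap for 133 genes (0.52%), of which 78 were higher (0.305%) and 55 lower (0.215%). With controls 5 and 6 kept, limma called 1 gene higher, a different one, and 4322 genes had an unadjusted p below 0.05.

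The called gene was LOC106570446, a protein-coding gene to which the reference annotation used here gives no name. Its normalized counts in high beauvericin libraries were 14.2, 16.7, 37.3, 23.2, 34.7 and 22.8, from 22 to 61 reads. In controls 1 to 4 they were 5.90, 4.22, 2.26 and 2.68, from 4 to 10 reads. Every high beauvericin library lay above every one of these controls. The change was 2.19 ± 0.35 on the log2 scale (95% interval 1.47 to 2.90, limma adjusted p = 0.030, n = 6 against 4). The controls left out had 1008 and 1583, far above every compared library, and with them the change was -0.42 (limma adjusted p = 0.84). Its direction thus rests on which controls are used. The call was also lost in limma without control 2 (adjusted p = 0.12), control 3 (0.18) or control 4 (0.069), and without high beauvericin replicate 3 (0.13), 4 (0.087), 5 (0.13) or 6 (0.082). With the 2 compared groups fitted alone the change was again 2.19 and the gene was not called (limma adjusted p = 0.34). The gene was at 14.3 to 32.5 after low beauvericin, 7.31 to 28.7 after high enniatin B and 7.37 to 24.6 after low enniatin B, so the other exposed groups held like levels.

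**Figure D2:**
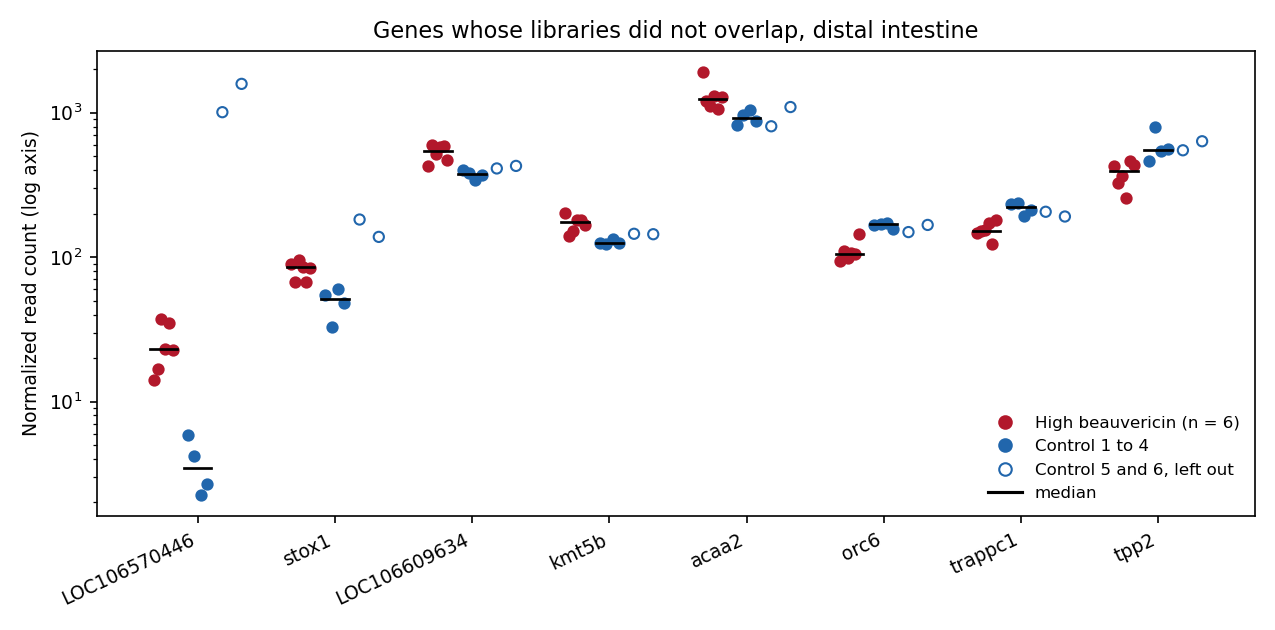
Normalized read count on a log axis for 8 genes whose high beauvericin libraries (red) and controls 1 to 4 (filled blue) did not overlap; open circles are the controls left out and black lines are medians. LOC106570446 separates the compared groups at 14.2 to 37.3 against 2.26 to 5.90, while the controls left out sit at 1008 and 1583.

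Of all higher genes with a symbol, the smallest p belonged to hoxa11ab (GeneID 100194475), a homeobox transcription factor of the posterior body. It had normalized counts of 110, 150, 58, 112, 69.3 and 181 in high beauvericin libraries and 20.1, 12.7, 16.4 and 30.1 in controls 1 to 4. The groups did not overlap. The change was 2.36 ± 0.46 (95% interval 1.41 to 3.31, limma adjusted p = 0.23), so it did not pass. With controls 5 and 6 kept, where the gene stood at 1.4 and 7.2, the change was 2.99 and the gene was called (limma adjusted p = 0.039). It was also called in limma when replicate 3 of low enniatin B was left out of the fit (adjusted p = 0.047) and by DESeq2 (adjusted p = 0.00075). It was not called by edgeR (adjusted p = 0.56) or voom. Nor was it called in limma with a pseudocount of 8 (adjusted p = 0.38) or the replicate number as a block (0.3). Leaving out any 1 of the 10 compared libraries gave changes of 2.19 to 2.56, with none called.

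The genes beside hoxa11ab in the reference assembly Ssal_v3.1 had positive changes, none of which passed the test. They were chosen for display after their values were seen. hoxa7aa had a lowest, median and highest count of 154, 199 and 233 in high beauvericin libraries, against 68.5, 91.4, 58.8 and 95.6 in controls 1 to 4. The groups did not overlap (change 1.32 ± 0.33, limma adjusted p = 0.747). LOC106588846, an unnamed protein-coding gene next in order, had 309, 588 and 734 in high beauvericin libraries, against 167, 127, 107 and 338 in controls, and only control 4 reached into the treated range (1.62 ± 0.39, limma adjusted p = 0.704). hoxa10ab had 56.2, 98.5 and 233 in high beauvericin libraries, against 45.5, 44.3, 52.5 and 82.9 in controls, with overlap through control 4 (0.86 ± 0.37, limma adjusted p = 0.999). Beyond hoxa11ab lies LOC106588851, a long non-coding RNA, with 38.5, 85.6 and 242 in high beauvericin libraries, against 23.6, 16.9, 7.35 and 28.8 in controls, without overlap (2.33 ± 0.57, limma adjusted p = 0.704). No source names strand-aware counting, and reads of LOC106588851 and of a neighbour on the other strand may not be told apart.

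The differences were smaller at both ends of the run. hoxa2ab and hoxa3ab, used toward the head, had changes of 0.03 and 0.40, and the measured genes past the cluster, LOC106588861 and LOC106588863, had 0.38 and 0.33. Without control 2, hoxa3ab had 0.17 and LOC106588863 0.05, and without control 4 they had 0.53 and 0.69. hoxa10ab, inside the run, ranged from 0.62 to 1.06 without 1 library, so its contrast with the ends depended on the libraries used. hoxa4aa, hoxa5aa and hoxa13 of the same run had no values in the data. Of the other posterior members, hoxc10aa had 71.5, 125 and 182 in high beauvericin libraries and 62, 28.1, 78.5 and 85.6 in controls, with overlap (1.07 ± 0.32). hoxc10ab had a change of 0.33 ± 0.31, and 0.15 without high beauvericin replicate 6. The 4 posterior hox genes matched by symbol thus all lay higher, with a median of 0.96. Over all genes tested, 49.4% lay higher and the median was -0.00. hoxa10ab and hoxa11ab lie in the same run, and the list need not hold every measured posterior hox gene. The median of the 4 was 0.75 without control 2 and 1.15 without control 4. Of the 6 middle hox genes 4 lay higher (median 0.06) and of the 5 anterior ones 3 (median 0.01). Besides hoxa7aa the middle ones were hoxb8ab (0.19), hoxb7ab (-0.06), hoxc5ba (0.04), hoxc6ba (0.08) and hoxa5a (-0.10), and the anterior ones not yet given were hoxb3a (-0.08), hoxa2aa (-0.12) and hoxa3a (0.01). The groups overlapped in each of these 8 genes.

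insl5a, an insulin-like peptide that in mammals is made by hormone cells of the hindgut, also had groups apart. Its normalized counts were 560, 569, 247, 576, 256 and 1380 in high beauvericin libraries and 228, 162, 125 and 104 in controls 1 to 4, without overlap, and 0 in both controls left out. The change was 1.75 ± 0.48 (limma adjusted p = 0.999), and 1.46 without high beauvericin replicate 6. The other exposed intestines, which share these 4 controls, had medians on the same side of control. For hoxa11ab the median count was 142 after low beauvericin, 70.5 after high enniatin B and 75.4 after low enniatin B, and for insl5a it was 716, 334 and 268. The position of the piece of distal intestine in each library is not given in the labels, and its part in these values was not tested.

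**Figure D3:**
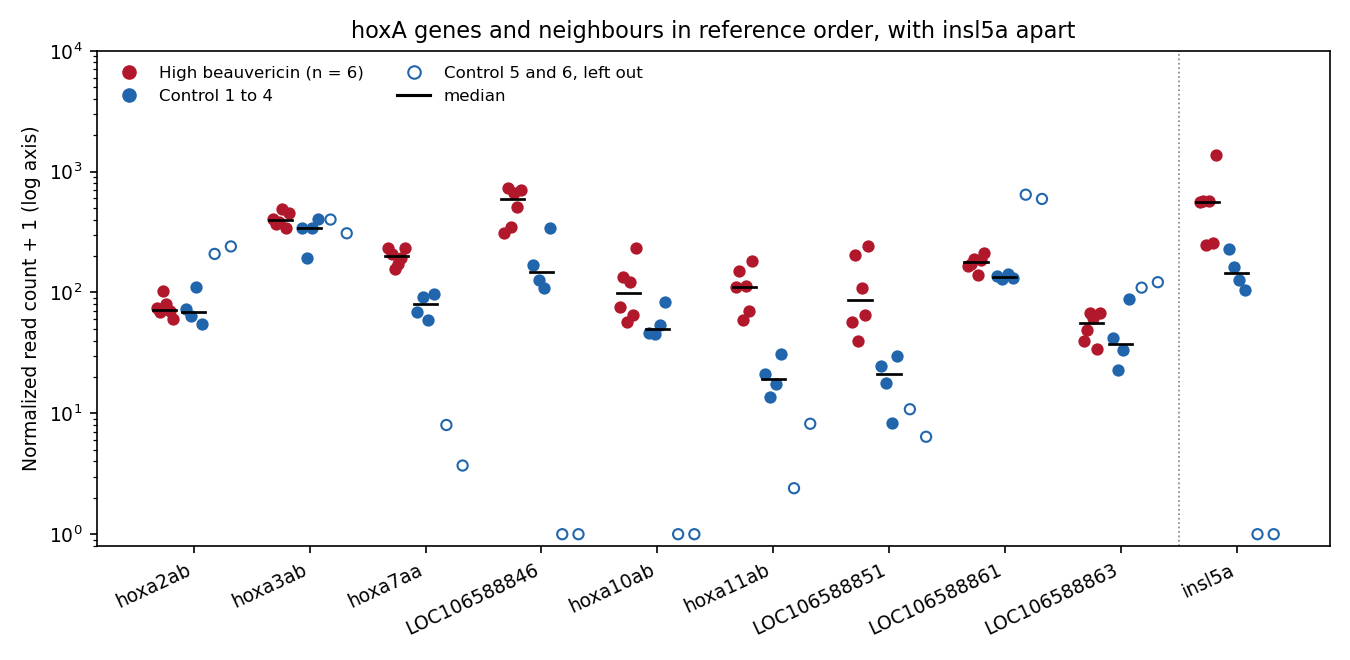
Normalized read count plus 1 on a log axis for the measured genes of the hoxA run in the order of the reference assembly, with insl5a to the right of the dotted line; red points are high beauvericin libraries, filled blue points controls 1 to 4, open circles the controls left out and black lines medians. The red and filled blue points separate for hoxa7aa, hoxa11ab (58 to 181 against 12.7 to 30.1) and LOC106588851, while LOC106588846 and hoxa10ab overlap through control 4 and hoxa2ab overlaps widely.

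Among the other genes with a symbol that were higher with the smallest p-values, 5 had groups without overlap besides hoxa7aa, hoxa11ab and insl5a. Picking genes by smallest p favours groups that lie apart, so this count is no result about them. Over all 25568 genes tested, 78 (0.305%) were higher without overlap. stox1, a DNA-binding protein of the winged-helix type, had 66.7, 84.8 and 95.3 in high beauvericin libraries and 54.9, 33, 60.5 and 48.2 in controls (0.73 ± 0.18, limma adjusted p = 0.704). kmt5b, a methyltransferase of histone H4, had 141, 175 and 201 in high beauvericin libraries and 126, 123, 133 and 126 in controls (0.41 ± 0.12). acaa2, the thiolase that closes each round of mitochondrial fatty acid oxidation, had 1058, 1246 and 1916 in high beauvericin libraries and 816, 964, 1050 and 870 in controls (0.48 ± 0.14). The margins were narrow: for acaa2 the lowest treated library exceeded the highest control by 1058 against 1050. tecpr1a, an autophagosome tethering factor, and adad2, an adenosine deaminase domain protein, had changes of 0.52 ± 0.15 and 0.75 ± 0.22. prdm11 (1.07 ± 0.28), myo9ab (0.54 ± 0.16), the RNA-binding protein gene ro60 (0.50 ± 0.15) and exoc3l2b (0.58 ± 0.17) overlapped. None of these passed the test.

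Unnamed genes held some of the smallest p-values. GeneID 106580638 had 260, 306 and 350 in high beauvericin libraries and 201, 83.7, 146 and 108 in controls, without overlap (1.25 ± 0.28, limma adjusted p = 0.57). LOC106566448 had 43.8, 53.6 and 64.1 in high beauvericin libraries and 18.3, 17.6, 28.8 and 48.8 in controls (0.97 ± 0.21). LOC106583211 had 35.4, 55.3 and 66.1 in high beauvericin libraries and 18.9, 15.5, 15.3 and 50.8 in controls (1.17 ± 0.26). Neither was called in the full fit (limma adjusted p = 0.54 and 0.57 in that order). Control 4 alone reached the treated range in both. Without it both were called in limma (adjusted p = 0.0057 for each), with changes of 1.26 and 1.55. Of the 10 fits without 1 library, only that fit called either gene. Without control 2 the changes were 0.80 and 1.02. edgeR called neither gene (adjusted p = 0.97 and 0.98).

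None of the lower genes was called. Those with a symbol and the smallest p-values are given first. orc6, a subunit of the origin recognition complex that marks where DNA copying starts, had 94.7, 111, 97.8, 106, 105 and 145 in high beauvericin libraries and 168, 170, 173 and 156 in controls 1 to 4. The groups did not overlap, and the controls left out had 149 and 167, also above every treated library (-0.61 ± 0.15, limma adjusted p = 0.704). chmp7, a subunit of the ESCRT membrane-remodelling machinery, had 33.9, 60 and 149 in high beauvericin libraries and 148, 269, 162 and 149 in controls (-1.36 ± 0.33). Treated replicates 5 and 6, at 149 and 146, lay at the level of the lowest controls. trappc1, a subunit of a Golgi tethering complex, had 123, 152 and 181 in high beauvericin libraries and 232, 236, 192 and 211 in controls, without overlap (-0.49 ± 0.14). tpp2, a giant cytosolic peptidase that trims peptides left by the proteasome, had 258, 393 and 464 in high beauvericin libraries and 465, 790, 545 and 558 in controls, without overlap by a margin of 464 against 465 (-0.64 ± 0.18).

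The remaining named lower genes overlapped between the groups. apoeb, an apolipoprotein of lipid transport, had -0.97 ± 0.26, and the Golgi nucleotide sugar carrier slc35a2 -0.47 ± 0.15. nduba had -0.34 ± 0.10, dhx36, an RNA helicase that unwinds G-quadruplexes, -0.27 ± 0.09, and herpud1, a membrane protein of the endoplasmic reticulum that helps dispose of misfolded protein, -0.41 ± 0.13 (-0.27 without control 2). For herpud1 the counts were 410, 445 and 588 in high beauvericin libraries and 601, 824, 581 and 533 in controls. lpp60 (-1.10 ± 0.36), slc2a11b (-1.04 ± 0.34) and trmt9b (-0.75 ± 0.25) overlapped too. LOC106595569 had the smallest p of all lower genes, with 129, 177 and 255 in high beauvericin libraries and 239, 353, 399 and 394 in controls (-0.92 ± 0.17, limma adjusted p = 0.19). Only treated replicate 1 and control 1 overlapped there. LOC106595569 was called in limma without either of them, at -1.02 without replicate 1 (adjusted p = 0.029) and -1.09 without control 1 (adjusted p = 0.022). No other fit without 1 library called it. DESeq2 called it (adjusted p = 0.0058), while edgeR (adjusted p = 0.3) and voom (adjusted p = 0.39) did not. LOC106612094 had 30.3, 43.4 and 52.2 in high beauvericin libraries and 59.6, 84.4, 101 and 78.3 in controls, without overlap (-0.93 ± 0.23), and LOC106604372 -0.54 ± 0.15.

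Energy metabolism was examined by complex, since beauvericin acts on mitochondria. Of 46 measured subunits of respiratory complexes I to V that were matched by symbol, 43 were lower after high beauvericin. The list had a median log2 change of -0.19 and a range of -0.46 to 0.12. It need not hold every measured subunit, and the counts by complex below are of matched subunits too. Over all genes tested, 50.6% were lower and the median was -0.00. None of the 46 was called and in none were the groups free of overlap. In bulk tissue, fewer cells of a type and less RNA per cell cannot be told apart. The mean log2 level of the list was 9.97, 10.12, 9.97, 10.02, 9.82 and 9.73 in high beauvericin libraries and 10.20, 10.38, 10.11 and 9.77 in controls 1 to 4. Control 4 lay among the lowest treated libraries and controls 1 and 2 above them all. The median was -0.10 without control 2 and -0.30 without control 4.

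By complex, 15 of 16 subunits of complex I (NADH dehydrogenase) were lower with a median of -0.13, and ndufs6 had 195, 238 and 286 in high beauvericin libraries and 332, 337, 281 and 298 in controls (-0.39 ± 0.16). All 4 subunits of complex II were lower, median -0.20. sdha, the flavoprotein of succinate dehydrogenase, had 1958, 2420 and 2617 in high beauvericin libraries and 4202, 3755, 2626 and 2549 in controls (-0.46 ± 0.20), and control 4 alone lay inside the treated range. The 3 subunits of complex III had a median of -0.21, with cyc1, cytochrome c1, at -0.29 ± 0.15, and -0.12 without control 2. Of the 10 subunits of complex IV 8 were lower, median -0.17. All 13 subunits of the ATP synthase were lower, median -0.25. atp5a1, its catalytic-ring alpha subunit, had 9960, 11481 and 13147 in high beauvericin libraries and 15418, 20698, 13846 and 10478 in controls (-0.35 ± 0.17, and -0.18 without control 2).

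Mitochondrial genes outside the chain were taken list by list. All 6 measured enzymes of the citric acid cycle and its entry were lower, median -0.30, among them pdha1a of pyruvate dehydrogenase (-0.24 ± 0.10), idh2 (-0.33 ± 0.19) and the citrate synthase gene cs (-0.31 ± 0.18). Without control 2 that median was -0.19 and without control 4 it was -0.38. Without control 2 pdha1a had -0.13, idh2 -0.22 and cs -0.20, and cs had -0.52 without control 4. Of 14 genes of fatty acid oxidation 12 were lower (median -0.19), such as etfa, which passes electrons to the chain (-0.35 ± 0.16), while acaa2 was higher as given above. Of 48 mitochondrial ribosomal proteins 40 were lower (median -0.11). That median was -0.04 without control 2, -0.29 without control 4 and 0.11 with controls 5 and 6 kept, where 31 of 48 were higher. mrpl19 was the member without overlap, at 402, 432 and 450 in high beauvericin libraries and 512, 539, 501 and 473 in controls (-0.24 ± 0.09). Of 17 genes of mitochondrial protein import 10 were lower (median -0.02), and of 31 assembly factors 21 (median -0.08). Of 42 cytosolic ribosomal proteins 27 were lower (median -0.03). With controls 5 and 6 kept the medians were 0.27, 0.03 and -0.22 in that order. The import, assembly and cytosolic ribosomal lists were not refitted without 1 library. None of these genes was called.

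**Figure D4:**
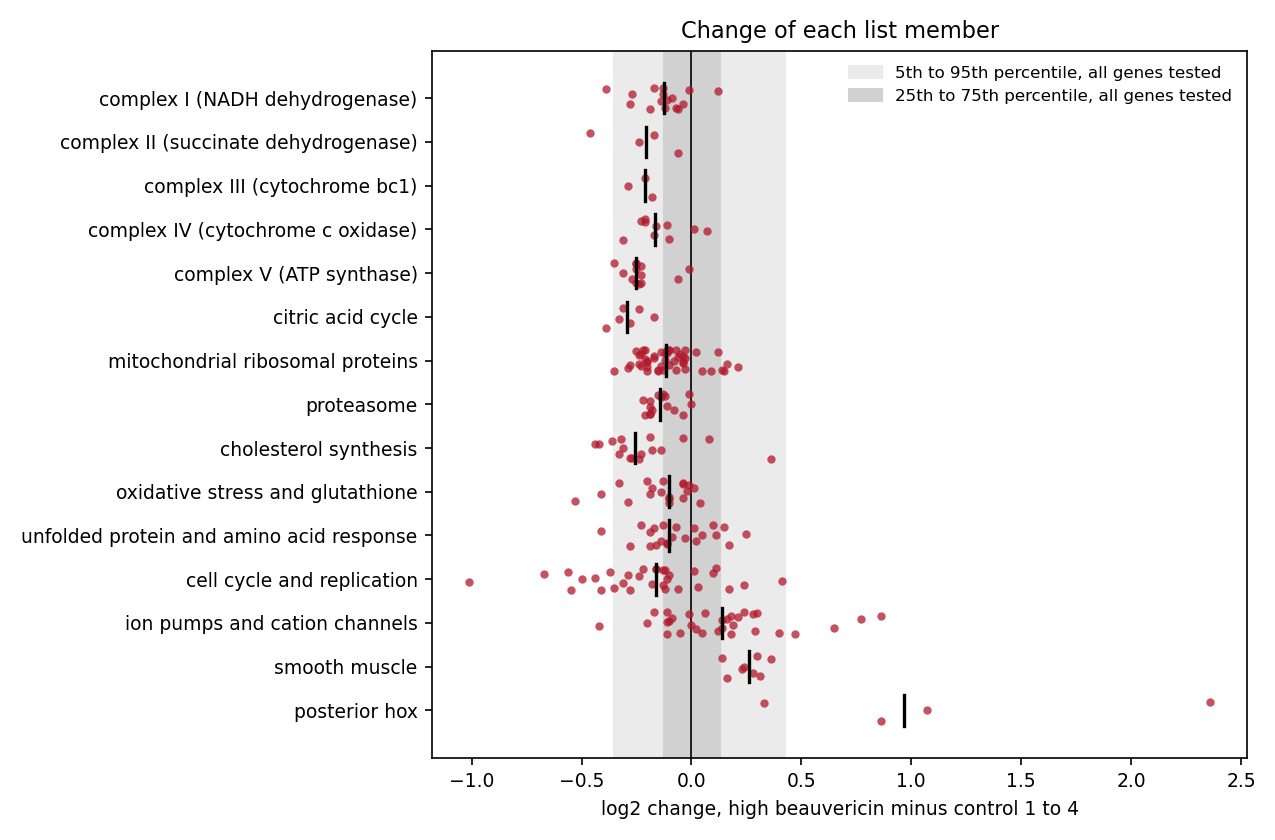
Each red point is the log2 change of a list member, high beauvericin minus controls 1 to 4, with the list median as a black bar; grey bands hold the middle of all genes tested, -0.12 to 0.13 for the darker and -0.35 to 0.43 for the lighter. Members of complexes I to V and of the citric acid cycle lie mostly left of 0, inside the lighter band, and the posterior hox genes lie to the right.

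The other exposed intestines were set beside these values, with the same 4 controls shared by all. The respiratory chain list had a median change of -0.25 after low beauvericin, -0.19 after high enniatin B and -0.17 after low enniatin B, each against those controls. Where no control entered, its median was 0.08 for high minus low beauvericin and 0.01 for high beauvericin minus high enniatin B. In liver, which has its own 6 controls, 37 of the 46 were higher after high beauvericin, with a median of 0.12. With controls 5 and 6 kept in the intestine, 34 of 46 were lower (median -0.10).

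Protein quality control genes had small changes, and none was called. All 16 measured proteasome subunits were lower, with a median of -0.14 and a range of -0.22 to -0.00, and psmc2 of the base ring had -0.21 ± 0.10. The direction of that list depended on the controls, since its median was 0.01 without control 2, -0.28 without control 4 and 0.13 with controls 5 and 6 kept. Of 22 genes of the unfolded protein and amino acid response 14 were lower (median -0.10), and the median was 0.09 without control 3, -0.32 without control 4 and 0.00 with controls 5 and 6 kept. herpud1 was the lowest of them, while the stress-induced gene sesn2 had 0.25 ± 0.20, and 0.04 without control 2. Of 6 heat shock genes 5 were lower (median -0.09, and 0.01 without control 4).

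Genes that answer oxidative stress, which beauvericin causes in cultured cells, were not higher as a group. Of 19 genes of oxidative stress and glutathione 17 were lower (median -0.10). The median was -0.00 without control 2, -0.22 without control 4 and 0.00 with controls 5 and 6 kept. sod2, the mitochondrial superoxide dismutase, had 1366, 1494 and 1628 in high beauvericin libraries and 1808, 2425, 1480 and 1647 in controls (-0.29 ± 0.11, and -0.15 without control 2). The sensor keap1a had -0.33 ± 0.25, and -0.03 without control 3. None of these was called.

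Ion transport genes bear on the ionophore action of the toxin, and 20 of 31 measured pumps, exchangers and cation channels were higher, with a median of 0.14, and -0.02 without control 2. slc12a2, the sodium-potassium-chloride cotransporter, had 156, 220 and 258 in high beauvericin libraries and 143, 95.6, 183 and 213 in controls (0.47 ± 0.21, and 0.25 without control 2). kcnk3a, a leak potassium channel, had 53.5, 71.8 and 134 in high beauvericin libraries and 63.2, 15.5, 41.2 and 67.6 in controls (0.86 ± 0.38), and 0.42 without control 2. kcnk5a, of the same channel family, had 0.65 ± 0.33, and 0.14 without control 3. Both kcnk3a and slc12a2 were lowest in control 2. With controls 5 and 6 kept, the list median was -0.04 and slc12a2 had -0.45.

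Xenobiotic metabolism gave changes in both directions and no call. sult3st1, a sulfotransferase, had 661, 787 and 873 in high beauvericin libraries and 1071, 1341, 890 and 815 in controls (-0.39 ± 0.13, and -0.25 without control 2). ahr2b, a copy of the aryl hydrocarbon receptor, had 123, 192 and 219 in high beauvericin libraries and 151, 131, 124 and 152 in controls (0.39 ± 0.13). Treated replicate 2, at 123, lay below every control for that gene and the other 5 lay above them all. ahr2a had 0.55 ± 0.30, with 0.22 without control 3 and 0.95 without control 4. Of the 15 genes of the list 11 were lower (median -0.08, with -0.21 without control 3 and -0.01 without control 4). Both sult3st1 and ahr2b changed direction with controls 5 and 6 kept, to 0.41 and -0.09.

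In cholesterol synthesis 14 of 16 genes were lower, with a median of -0.25. mvk, mevalonate kinase, had 102, 133 and 173 in high beauvericin libraries and 166, 229, 112 and 195 in controls (-0.33 ± 0.18, with -0.53 without control 3 and -0.19 without control 2). That median was 0.05 without control 2 and -0.44 without control 4, and 0.10 with controls 5 and 6 kept. Among inflammatory genes, all 5 tested were lower, median -0.43. That list holds no cytokine gene. In it tnfaip3, a brake on NF-kappaB signalling, had -0.43 ± 0.19 and ptgs2b, a prostaglandin synthase, -0.53 ± 0.31. Without control 4 the median and tnfaip3 were both at -0.24 and ptgs2b at -0.95, and ptgs2b was at -0.27 without control 2. With controls 5 and 6 kept, 3 of the 5 were lower and 2 higher (median -0.34). Of 11 antiviral genes 8 were lower (median -0.07, with 0.06 without control 3 and -0.21 without control 4), and irf7 had -0.65 ± 0.33. The glucocorticoid list had 5 of 8 higher (median 0.04, with -0.20 without control 2 and 0.22 without control 4). tsc22d3, a leucine zipper protein induced by cortisol, had 1549, 2771 and 3496 in high beauvericin libraries and 2126, 1310, 1971 and 5325 in controls (0.17 ± 0.32), with -0.11 without control 2 and 0.57 without control 4. igfbp1a, a liver and stress hormone target, had -1.16 ± 0.49, and -0.62 without control 2, with control 2 at 137 and the other controls at 17.7, 33.3 and 42.1.

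For cell cycle genes the direction of the list depended on which controls were used. Of 31 genes of the cycle and replication 24 were lower (median -0.16), with ccnb2, a mitotic cyclin, at 40, 64.7 and 96.3 in high beauvericin libraries and 109, 191, 90.4 and 57.5 in controls (-0.67 ± 0.28). tk1, thymidine kinase, had -0.56 ± 0.25 and ccnb1 -0.55 ± 0.30. Without control 2 ccnb2 had -0.37, tk1 -0.34 and ccnb1 -0.16, and ccnb1 had -0.91 without control 4. The mean log2 level of the list was 7.74, 7.49, 7.64, 7.64, 7.66 and 7.46 in high beauvericin libraries and 7.68, 8.77, 8.22 and 6.58 in controls 1 to 4. The treated libraries thus lay within a narrow band that the controls spanned on both sides. The list median was 0.09 without control 2 and -0.62 without control 4. When controls 5 and 6 were kept, 28 of 31 were higher, with a median of 0.36.

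**Figure D5:**
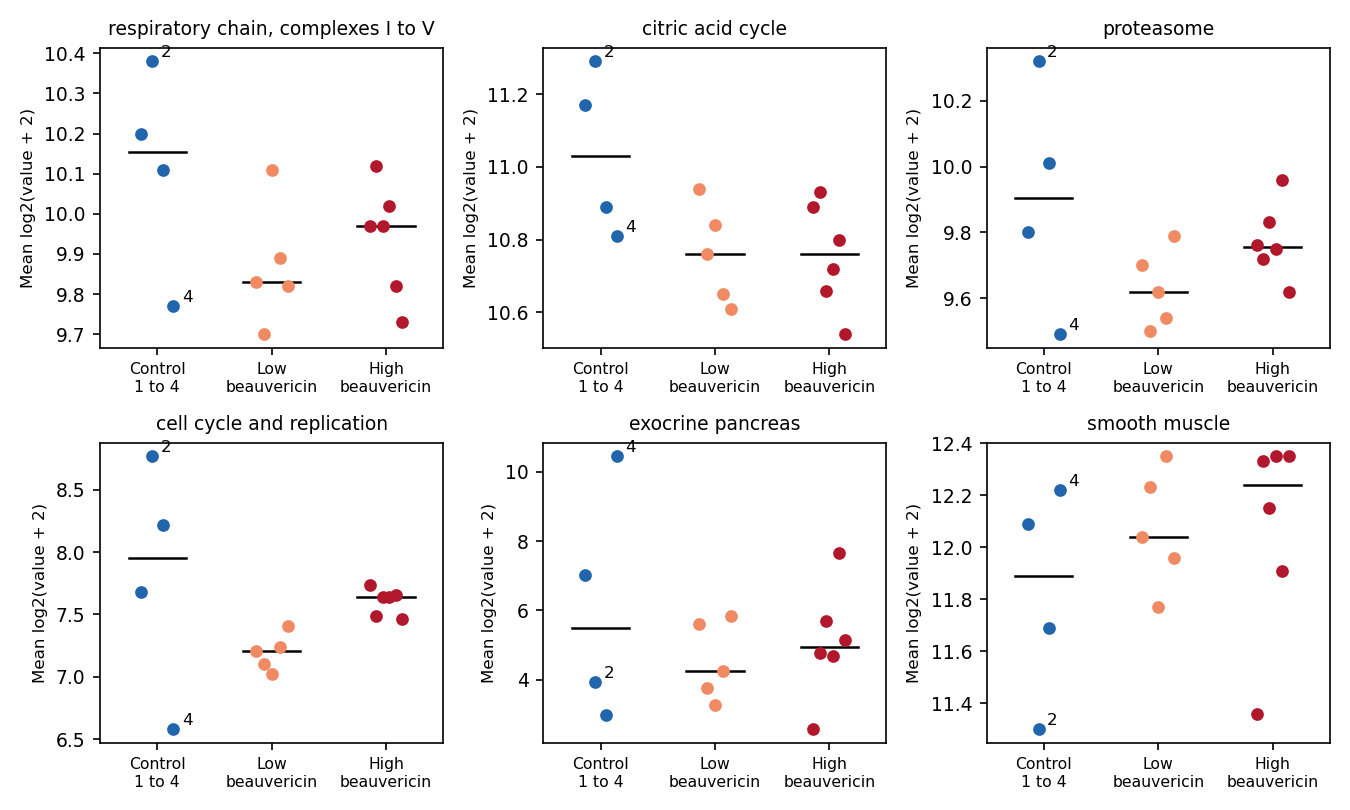
Mean log2(value + 2) over the members of 6 lists, each point a library of controls 1 to 4 (blue), low beauvericin (orange) or high beauvericin (red), with medians as black lines and controls 2 and 4 numbered. Among the controls, replicate 2 is highest and replicate 4 lowest for the respiratory chain, citric acid cycle, proteasome and cell cycle lists, and control 4 stands at 10.45 for exocrine pancreas.

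Markers of other cell types were compared because they can move with such lists. The exocrine pancreas list, 5 enzymes, was lower for all 5 members (median -0.96), and its summed normalized count was 35.4 to 1035 in high beauvericin libraries and 41.2 to 7228 in controls 1 to 4. Without control 4 the median was 0.40, and without control 3 it was -1.91. Control 4 gave the highest sum, and no defining enzyme was at 0 in it. All 8 smooth muscle genes were higher (median 0.26, and 0.07 without control 2), with summed counts of 54681 to 173556 in high beauvericin libraries and 67750 to 145209 in controls. cnn1b, calponin, had 7189, 14560 and 19010 in high beauvericin libraries and 11551, 6013, 9613 and 18515 in controls (0.36 ± 0.27, with 0.09 without control 2 and 0.63 without control 4). The list had 0 of 8 higher and a median of -0.43 with controls 5 and 6 kept. Control 2 had the lowest smooth muscle level (11.30) and the highest respiratory chain level. Red cell markers had a median of -0.23 (-0.36 without control 3, -0.01 without control 4), with 2 of 9 higher and summed counts of 1557 to 2329 in high beauvericin libraries against 1619 to 3283 in controls. Groups overlapped in every list of this paragraph, and the part of cell make-up in the changes was not tested.

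Immune and stromal lists held few differences. The 8 myeloid genes had a median of -0.11, the 3 T and B cell genes -0.12, the 5 endothelial genes 0.14 and the 6 fibroblast and matrix genes -0.01. Keeping controls 5 and 6 gave medians of 0.17 for myeloid, 0.59 for T and B cell, 0.06 for endothelial and -0.27 for fibroblast genes. Of 4 enteric neuron and glia genes 3 were higher (median 0.33), with elavl4, a neuronal RNA-binding protein, at 0.68 ± 0.34. Without control 2 that median was 0.00 and elavl4 had 0.27. The 17 tight junction genes that were tested had a median of 0.01 and the 21 lysosome and autophagy genes 0.01. The 14 immediate early genes had 0.00.

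The high dose was next compared with the low dose of beauvericin, 5 libraries, with no control in the comparison. limma called 0 of 25568 genes higher (0.0%) and 0 lower (0.0%), with 907 at an unadjusted p below 0.05. edgeR and voom called 0 and DESeq2 2. The smallest p-values among named genes belonged to ankrd24, prom2 and endouc. ankrd24 had 17.3, 24.1 and 48.1 after the high dose against 61.7, 103 and 184 after the low dose, lowest, median and highest, without overlap (-1.94 ± 0.40, limma adjusted p = 0.83). prom2, a membrane-protrusion protein of the prominin family, had 18, 35 and 57.8 after the high dose against 79.6, 92 and 108 after the low dose, without overlap (-1.44 ± 0.31). endouc had -0.61 ± 0.16. hoxa11ab did not differ detectably between the doses (-0.26 ± 0.43, 95% interval -1.15 to 0.63), nor did LOC106570446 (0.23 ± 0.33, 95% interval -0.44 to 0.90). Cell cycle genes lay higher after the high dose in 29 of 31 cases, with a median of 0.45, while 52% of all genes tested lay lower. Their mean log2 level was 7.46 to 7.74 after the high dose and 7.02 to 7.41 after the low dose. Other lists moved too in this comparison. Brush border and uptake genes lay lower in 17 of 18 cases (median -0.29) and lipid absorption genes in 9 of 10 (median -0.31). Cytosolic ribosomal proteins lay higher in 39 of 42 cases (median 0.098). The part of cell make-up in these shifts was not tested.

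High beauvericin was also compared with high enniatin B, 6 libraries each. Enniatin B is built on the same ring with N-methyl-valine in place of the N-methyl-phenylalanine of beauvericin. The labels give both doses only as high, so equal doses are not assumed. limma called 1 of 25568 genes higher (0.00391%) and 0 lower (0.0%), with 1418 at an unadjusted p below 0.05. The called gene was LOC106609634, an unnamed protein-coding gene, with 426, 545 and 599 after high beauvericin against 306, 335 and 359 after high enniatin B. The groups did not overlap (0.65 ± 0.10, limma adjusted p = 0.013). edgeR and voom each called 1 gene as well, and DESeq2 7. In limma, 0 genes were called without high beauvericin replicate 2, 4 or 5 or without high enniatin B replicate 1 or 6. Against controls 1 to 4, at 403, 382, 342 and 373, LOC106609634 was higher after high beauvericin without overlap and did not pass (0.49 ± 0.11, limma adjusted p = 0.57), and it had -0.16 after high enniatin B. Cell cycle genes were higher after high beauvericin in 26 of 31 cases (median 0.28), and the 5 inflammatory genes were lower (median -0.62), while 54% of all genes tested lay lower. Brush border and uptake genes were lower in 15 of 18 cases (median -0.16) and lipid absorption genes in 8 of 10 (median -0.30).

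The change after high beauvericin in intestine was finally set against that in liver, with 56 libraries of both tissues in the fit. limma called 0 of 26239 genes for a higher change in intestine (0.0%) and 1 for a lower one (0.00381%), with 1290 at an unadjusted p below 0.05. That gene was plg, plasminogen, which the liver makes for the blood. In intestine it had 0, 0, 1.22, 0, 0 and 0 in high beauvericin libraries and 8.27, 25.3, 3.96 and 3.34 in controls 1 to 4, which is at most 2 reads against 5 to 36 reads. In liver it had 191612 to 264488 in high beauvericin libraries and 207596 to 252169 in controls. Its low values kept it out of the test against control in intestine, and it entered this fit only through its liver values. The difference of the changes was -2.11 ± 0.38 (limma adjusted p = 0.035) and depends on the constant added before the logarithm. Its standard error pools the spread of all 56 libraries, liver included. This p-value therefore does not measure the spread of the intestine counts alone. Of 9 other blood proteins made by the liver, 2 passed the filter in intestine, alb2 and c9, which had -0.22 ± 0.64 and -1.04 ± 0.54 in intestine, at 12 normalized counts or fewer in the compared libraries.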

How the data were processed

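Polyadenylated RNA was extracted from liver and distal intestine with QIAzol and an EZ1 kit and read as 150 bp pairs on a NovaSeq, per the labels' protocols. Tools named without role in the submitters' processing notes include Trim Galore 0.4.2, HISAT2, featureCounts and DESeq2 1.18.1. No genome build is named there, and coordinates are left out. As deposited, each signal value is a normalized read count, given for 26239 genes, in which the authors divided each library's counts by a factor. Multiplied back, 99.99987% of values lay within 0.1 read of a whole read. The lowest mean value is 21.1, and genes below that are not in the table. Symbols were taken from Ssal_v3.1 (24184 GeneIDs matched, 7529 with a symbol that is not a LOC number). Salmon carry near-identical gene copies, whose values are uncertain where they share reads.

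Because the values are normalized, limma (trend, robust) on log2(value + 2) was used in place of a count test. Genes needed a value of 10 or more in 5 of the 27 libraries, and Benjamini-Hochberg adjustment was over all genes tested, at 0.05. edgeR quasi-likelihood, DESeq2 and voom on recovered reads were alternatives. Functions were tested on simulated data. DESeq2 was version 1.42.0, edgeR 4.0.16 and limma 3.58.1 (with statmod 1.5.0), under R 4.3.3.

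The members and gene lists were chosen with earlier results of these data known. Lists were matched by symbol and carry no test. Named against control are called genes, the 12 higher and 12 lower with a symbol and the 6 and 6 of all genes with the smallest p, up to 4 members of a list by smallest p, all measured hox members, and hoxa11ab, herpud1 and tsc22d3, which earlier results named. For other comparisons they are called genes, or the 3 with a symbol and the smallest p. An item withheld from this account, and the gene list that held it, are not reported here.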

Additional observations from a re-analysis of the deposited data

Results flagged for a closer look

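Single libraries lay far from the rest of their group in 18 of 196 group checks. The transcripts cubn, lgmn, slc15a1a, pyy, prss1 and ela2 were added to these checks by hand. The list of endocytic enterocyte genes holds only cubn and lgmn. The count is therefore not set against a chance rate. In high beauvericin replicate 6, cubn was highest at 10329, lgmn at 46353, insl5a at 1380 and orc6 at 145, pyy was lowest at 343, and the mean log2 level of the endocytic enterocyte genes was highest at 14.4. Replicate 1 of that group was highest for acaa2 at 1916 and cs at 5743, replicate 3 for tecpr1a at 335, and replicate 5 for trmt9b at 180, prss1 at 249 and ela2, a pancreatic elastase, at 280, while replicate 2 was lowest for ahr2b at 123. Control 4 was highest for prss1 at 1709, ela2 at 2028 and LOC106583211 at 50.8, control 1 for adad2 at 42.5 and control 2 for chmp7 at 269.

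A difference between groups passed its own test for LOC106609634, high beauvericin minus high enniatin B (0.65 on the log2 scale), and for plg, intestine minus liver (-2.11). plg entered that test only through its liver values, and the spread used there was pooled over both tissues. In intestine it had at most 2 reads after high beauvericin and 5 to 36 reads in controls 1 to 4. LOC106570446 stood at 1008 and 1583 in the controls left out, outside the compared libraries.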

How the results depend on the processing

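Against control, limma called 1 gene higher, and this became 0 with the compared groups fitted alone, with a pseudocount of 8, with a value of 50 or more in 5 libraries required, and in edgeR and voom. It was 2 with replicate 3 of low enniatin B left out of the fit and 5 in DESeq2. Without 1 library it ranged from 0 to 3, the 3 without control 4. The count of lower genes, 0, was 1 in DESeq2 and 0 to 1 without 1 library (1 without control 1 or high beauvericin replicate 1). High against low beauvericin gave 0 genes and 2 in DESeq2, with 0 throughout the fits without 1 library. High beauvericin against high enniatin B gave 1, which became 0 with the groups alone and 7 in DESeq2, and 0 to 1 without 1 library. Intestine minus liver gave 1, which became 0 with the groups alone, 2 in edgeR, 19 in DESeq2, 0 in voom, 2 with a pseudocount of 1 and 0 with a pseudocount of 8, and 0 to 4 without 1 library. The cause was not tested.

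Same-numbered libraries of high beauvericin and control had correlations of -0.15, -0.05, -0.19 and 0.35, and only number 4 matched its own number best. These few values showed no clear pairing and cannot settle whether the numbers pair the libraries. With the replicate number as a block the count of higher genes was 0, against control, and that of intestine minus liver 0.

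With controls 5 and 6 kept, the proteasome median was 0.13, the citric acid cycle median 0.04 and the posterior hox median 1.92. The sign turned for LOC106570446 (-0.42), hoxc10ab (-0.10), myo9ab (-0.13), cs (0.32), psma5 (0.11), sod2 (0.05), tk1 (0.21), ccnb1 (0.14), irf7 (0.15), slc12a2 (-0.45), sult3st1 (0.41), ahr2b (-0.09), sesn2 (-0.18), keap1a (0.11), ahr2a (-0.29), cnn1b (-0.46), hoxa2ab (-0.50), LOC106588861 (-0.35), LOC106588863 (-0.16), hoxb7ab (0.69) and hoxa3a (-0.17). For hoxa2ab it also turned in edgeR (-0.00). Without control 2 it turned for tsc22d3 (-0.11) and cebpd (-0.01), a stress hormone target, and without 1 library these ranged from -0.11 to 0.57 and from -0.01 to 0.63. For hox genes with changes near 0 the sign also turned without 1 library, with ranges of -0.10 to 0.22 for hoxa2ab, -0.13 to 0.50 for hoxb8ab, -0.31 to 0.09 for hoxb7ab, -0.03 to 0.15 for hoxc5ba, -0.20 to 0.25 for hoxc6ba, -0.21 to 0.04 for hoxa5a, -0.26 to 0.07 for hoxb3a and -0.17 to 0.14 for hoxa3a. Together these are 45 of 1777 values of 81 named genes under 22 settings. A call was gained in 10 of those values and lost in 12. TMM scaling within the fit and dropping the filter on low values left the counts against control at 1 and 0. Scalings moved the median of all genes by less than 0.05. With 4 controls, changes smaller than about 0.391 on the log2 scale lay inside the typical 95% interval.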
